A study of Homo sapiens with 12 samples.

Results

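Integrins and the laminins and matrix glycoproteins that they bind were followed in 2 neuroblastoma lines after inhibition of the RNA methyltransferase METTL3. Genes were taken by name: every symbol of an integrin subunit or laminin chain, and 16 further matrix genes (FN1, TNC, TNR, THBS1, THBS2, SPARC, FBN1, FBN2, FBLN1, FBLN2, POSTN, VCAN, NID1, NID2, HSPG2 and AGRN). This gave 56 of the 19923 genes counted. Of these, 26 were integrin subunits (18 alpha and 8 beta), 12 were laminin chains and 16 the other matrix proteins, so that 28 ligands stood against 26 receptor subunits. The other 2 matched by name alone: ITGBL1 encodes a secreted protein with integrin-like repeats, and ITGB3BP encodes a centromere protein.

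RNA was sequenced from SK-N-BE2 cells and NGP cells, both established human neuroblastoma lines that carry amplified MYCN and are labelled as wild-type in genotype. SK-N-BE2 received DMSO or 12 µM STM2457 and NGP received DMSO or 1 µM STM2457, each for 6 days, with 3 replicate libraries in each of the 4 groups. STM2457 is a small molecule that inhibits METTL3, the enzyme that places N6-methyladenosine (m6A) on messenger RNA. The lines differed in dose and in the sequencing run named in the file headers, and effects of line, of dose or of run cannot be told apart. No label says that replicates came from separate cultures, and the p-values then measure only the spread between these libraries.

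Integrins are heterodimers of an alpha and a beta subunit that span the plasma membrane, bind matrix proteins outside the cell and connect them through talin and kindlin to the actin cytoskeleton. The pairing sets the ligand: subunits that pair with ITGB1 include laminin, collagen and fibronectin receptors, and ITGAV pairs with several beta subunits to bind proteins that carry the arginine-glycine-aspartate tripeptide. Laminins are trimers of an alpha, a beta and a gamma chain and form basement membranes with nidogens, perlecan and agrin. In neuroblastoma, matrix and integrin genes are known to be high in the mesenchymal cell state and lower in the adrenergic one.

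Libraries held 47242379 to 58159937 counted reads. METTL3 itself was higher with STM2457, at 50.8 to 57.3 CPM (reads scaled to library size) with DMSO against 78.0 to 80.8 CPM in SK-N-BE2 and at 36.8 to 43.99 against 75.5 to 80.4 CPM in NGP. An inhibitor of the enzyme need not lower its transcript, so this does not check the labels. Adrenergic markers, a list of 10 genes, summed to between 5837 and 7031 CPM over all libraries, with the groups overlapping in both lines. Leukocyte markers (7 genes, ITGAM among them) summed to at most 2.70 CPM, and PTPRC, CD3E and HBB had 0 reads in NGP. NGP DMSO replicate 1 stood apart from the other NGP DMSO libraries, and values without it are given for several results.

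A gene was called changed at an adjusted p (Benjamini-Hochberg, over all genes tested) below 0.05 in edgeR's quasi-likelihood test, fitted within a line. In SK-N-BE2, 47 of the 56 genes had enough reads to be tested, of which 15 rose and 8 fell, or 48.9%, where 54.7% of all 14013 tested genes were called. In NGP, 42 were tested, of which 17 rose and 7 fell, or 57.1%, where 41.7% of all 13610 tested genes were called. Passing the read filter depends on the higher group, so these counts describe the genes that passed and not all 56. Without NGP DMSO replicate 1, 7897 of all 13776 tested genes were called in NGP, so the all-gene share there depends on that library. The count among the 56 genes also varied when 1 library was left out, over a range given further below. The 57.1% belongs to the fit with every library and is not to be set against the 7897. In SK-N-BE2 the treated libraries lay beyond all control libraries for 18 tested genes upwards and 7 downwards, where 33.2% and 29% of all tested genes did so (62.2% together). In NGP this held for 19 and 7, where 28.4% and 26.2% of all tested genes did so (54.7% together). The genes not tested in any fit were ITGAD, ITGAM, ITGAX, ITGB6, ITGB7, FBN2 and ITGBL1.

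Ligands and receptors were then set against each other. In SK-N-BE2, 9 of 26 tested ligands rose and 2 fell, with a median log2 fold change of 0.26, while 6 of 20 tested integrin subunits rose and 5 fell, with a median of 0.05, beside a median of -0.02 over all genes. In NGP, 10 of 22 tested ligands rose and 4 fell (median 0.11), and 6 of 19 tested subunits rose and 3 fell (median 0.27), beside a median of -0.03 over all genes. In SK-N-BE2 26.9% of all genes were called higher, against 19.4% in NGP, and 27.8% and 22.2% were called lower. In SK-N-BE2 the number of receptors that fell was 3 or 4 when 1 library was left out, and the number of ligands that fell was 1 without DMSO replicate 1, STM2457 replicate 1 or STM2457 replicate 3. In NGP the number of receptors that fell was 1 without STM2457 replicate 3.

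The ligands themselves divided by kind. Of the 15 tested matrix proteins other than laminins, 8 rose and 1 fell in SK-N-BE2 (median 0.72), and of 13 tested in NGP, 8 rose and 2 fell (median 1.00). Laminin chains did not share this: in SK-N-BE2 1 of 11 tested chains rose and 1 fell (median -0.02), and in NGP 2 of 9 rose and 2 fell (median -0.20). In SK-N-BE2 and NGP, 60% and 76.9% of the tested matrix proteins other than laminins were called, and 18.2% and 44.4% of the tested laminin chains. Of all tested genes 54.7% and 41.7% were called. These are counts and medians of chosen genes, with no test between the kinds.

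**Figure D1:**
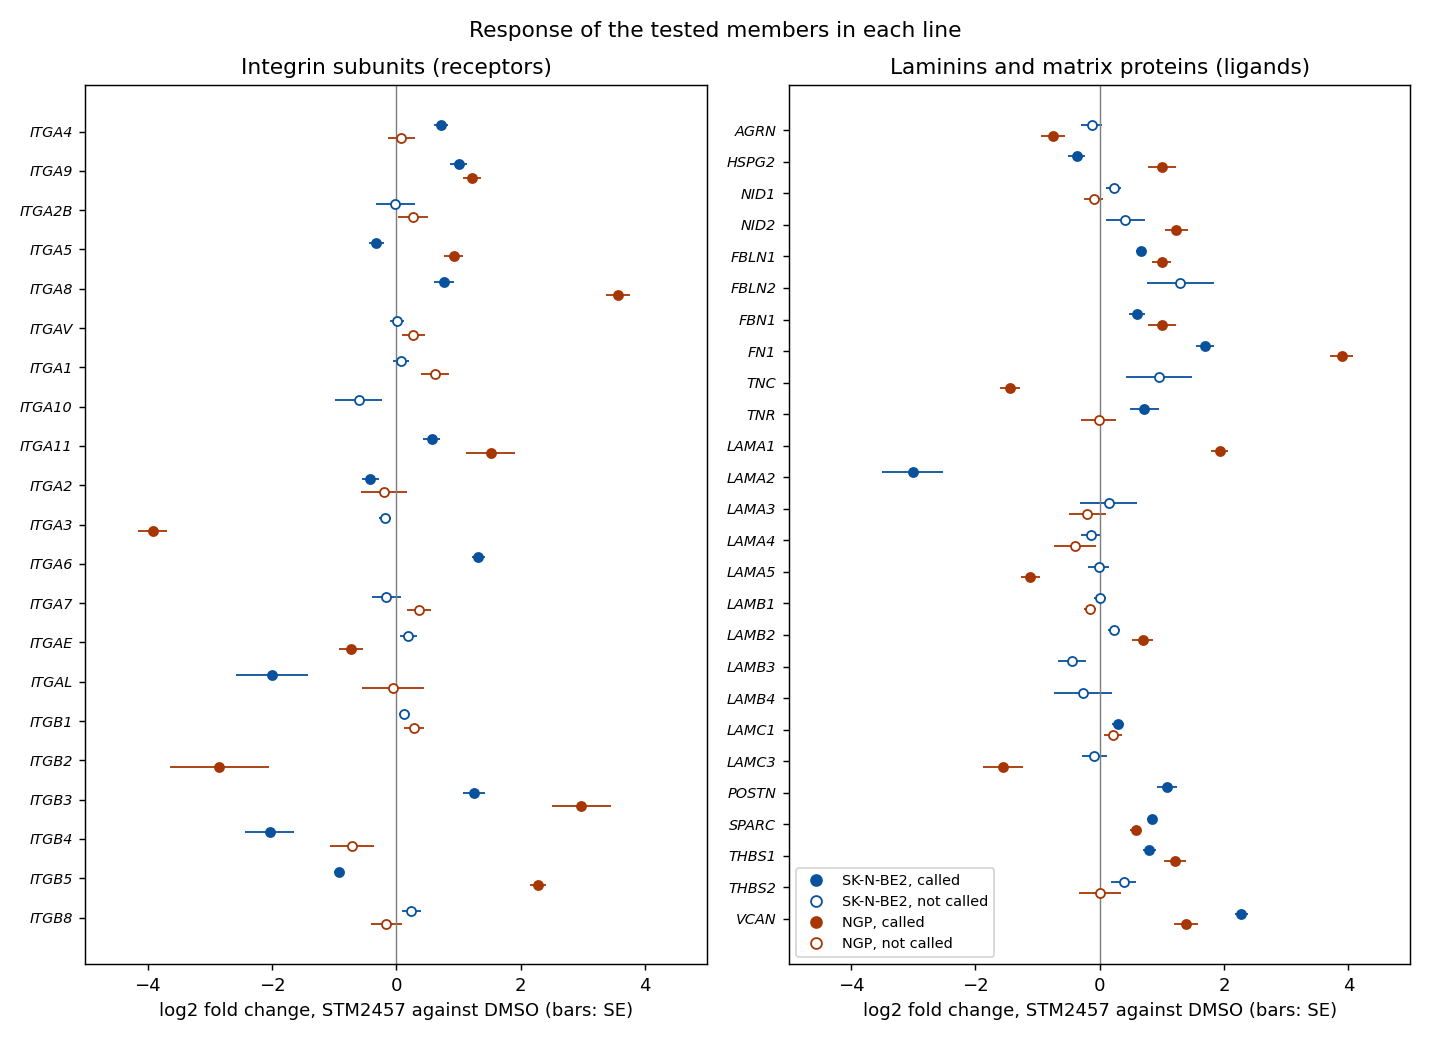
Log2 fold change with STM2457 against DMSO for each tested integrin subunit (left) and for the laminin and matrix genes reported (right), in SK-N-BE2 (blue) and NGP (brown). Filled points passed the adjusted p threshold of 0.05 and bars are standard errors. FN1 and VCAN lie to the right of 0 in both lines, whereas ITGB5 lies at -0.91 in SK-N-BE2 and at 2.29 in NGP.

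FN1 encodes fibronectin, the fibril-forming ligand of the receptors that hold ITGA5, ITGA8 or ITGAV, and lies on chromosome 2 from 215360440 to 215436073 (GRCh38, minus strand). In SK-N-BE2 its level was 33.2, 19.7 and 26.4 CPM in the DMSO libraries and 84.2, 84.6 and 94.9 CPM in the STM2457 libraries. In NGP it was 15.8, 22.4 and 24.2 CPM with DMSO and 347, 271 and 323 CPM with STM2457. Every treated library lay above every control library of its line. The log2 fold change was 1.70 (standard error 0.14, adjusted p = 6.93e-07 by edgeR) in SK-N-BE2 and 3.89 (standard error 0.19, adjusted p = 4.77e-06 by edgeR) in NGP. The responses differed by -2.18 on the log2 scale (SK-N-BE2 minus NGP, SE 0.25, edgeR adjusted p = 2.68e-05 for the interaction). In the control libraries FN1 was not called different between the lines (log2 difference 0.35, edgeR adjusted p = 0.0978).

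VCAN (chromosome 5, 83471618 to 83582303, plus strand) encodes versican, a large chondroitin sulphate proteoglycan of provisional matrix. Its level in SK-N-BE2 was 19.9, 14.6 and 16.3 CPM with DMSO and 82.4, 85.1 and 85.0 CPM with STM2457. In NGP it was 84.9, 144 and 140 CPM with DMSO and 333, 295 and 351 CPM with STM2457, so the groups did not overlap in either line. The log2 fold change was 2.28 (standard error 0.11, adjusted p = 4.07e-09 by edgeR) in SK-N-BE2 and 1.39 (standard error 0.19, adjusted p = 0.000811 by edgeR) in NGP. Here the larger response was that of SK-N-BE2, by 0.90 in log2 (edgeR adjusted p = 0.00993). The treated SK-N-BE2 libraries reached about the level of the lowest NGP control library, NGP DMSO replicate 1.

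Promoter sequence is shown for FN1 and VCAN, the called ligands of at least 1 CPM with the largest increases, and for ITGB5 and ITGA8, the receptor subunits with the largest called differences between lines among those with a listed promoter. Each line gives the 250 bases upstream of the RefSeq transcription start on GRCh38.p14, read 5′ to 3′ on the strand of the gene, for VCAN only the 124 bases that lie before the gene as counted. The ITGB5 window lies wholly inside the gene as counted (124761948 to 124901418), which starts further upstream than the RefSeq start used. The FN1 window ends a few bases inside its counted gene. Capitals mark exact matches on either strand to the cyclic AMP response element TGACGTCA or the GC box GGGCGG. The windows are chr2:215436069-215436318 (minus strand) for FN1, chr5:83471494-83471617 (plus strand) for VCAN, chr3:124887366-124887615 (minus strand) for ITGB5 and chr10:15719923-15720172 (minus strand) for ITGA8.
FN1: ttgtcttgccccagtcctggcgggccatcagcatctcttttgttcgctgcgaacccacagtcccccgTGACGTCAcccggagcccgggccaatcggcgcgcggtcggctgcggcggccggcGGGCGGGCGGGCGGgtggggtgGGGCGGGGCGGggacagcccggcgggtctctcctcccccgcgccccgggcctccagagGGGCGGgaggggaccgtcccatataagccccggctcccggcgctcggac
VCAN: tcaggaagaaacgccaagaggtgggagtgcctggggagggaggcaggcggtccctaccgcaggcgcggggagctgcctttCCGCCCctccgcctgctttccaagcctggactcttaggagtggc
ITGB5: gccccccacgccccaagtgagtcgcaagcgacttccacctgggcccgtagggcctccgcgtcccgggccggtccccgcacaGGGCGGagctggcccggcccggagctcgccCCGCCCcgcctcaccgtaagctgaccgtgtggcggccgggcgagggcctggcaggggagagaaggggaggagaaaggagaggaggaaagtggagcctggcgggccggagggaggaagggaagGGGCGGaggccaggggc
ITGA8: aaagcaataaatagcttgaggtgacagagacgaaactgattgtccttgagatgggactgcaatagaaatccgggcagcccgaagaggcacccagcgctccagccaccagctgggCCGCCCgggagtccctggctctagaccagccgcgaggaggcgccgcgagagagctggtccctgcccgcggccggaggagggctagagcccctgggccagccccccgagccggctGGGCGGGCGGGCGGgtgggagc

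Of these sequences only that of FN1 holds the cyclic AMP response element, which was also the only match among the 42 of 56 genes with a listed promoter (2.38%), beside 1.65% of all 35116 promoters of this length. GC boxes were found in the FN1, VCAN, ITGB5 and ITGA8 windows, in 24 of the 42 promoters (57.1%) and in 42.6% of all promoters. The E-box CACGTG, the form bound by MYC proteins, was found in 1 of the 42 (2.38%, FBN2) and in 6.34% of all promoters. The AP-1 element TGANTCA was found in 3 (7.14%, against 6.57% of all), and the TEAD element GGAATG in 7 (16.7%, against 11.9%). Those 7 were FBN1, ITGA10, ITGA5, LAMA2, SPARC, THBS1 and THBS2, and they did not share a direction of response. Both strands were searched, matches to different motifs could overlap, and a match describes letters and not bound factors.

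**Figure D2:**
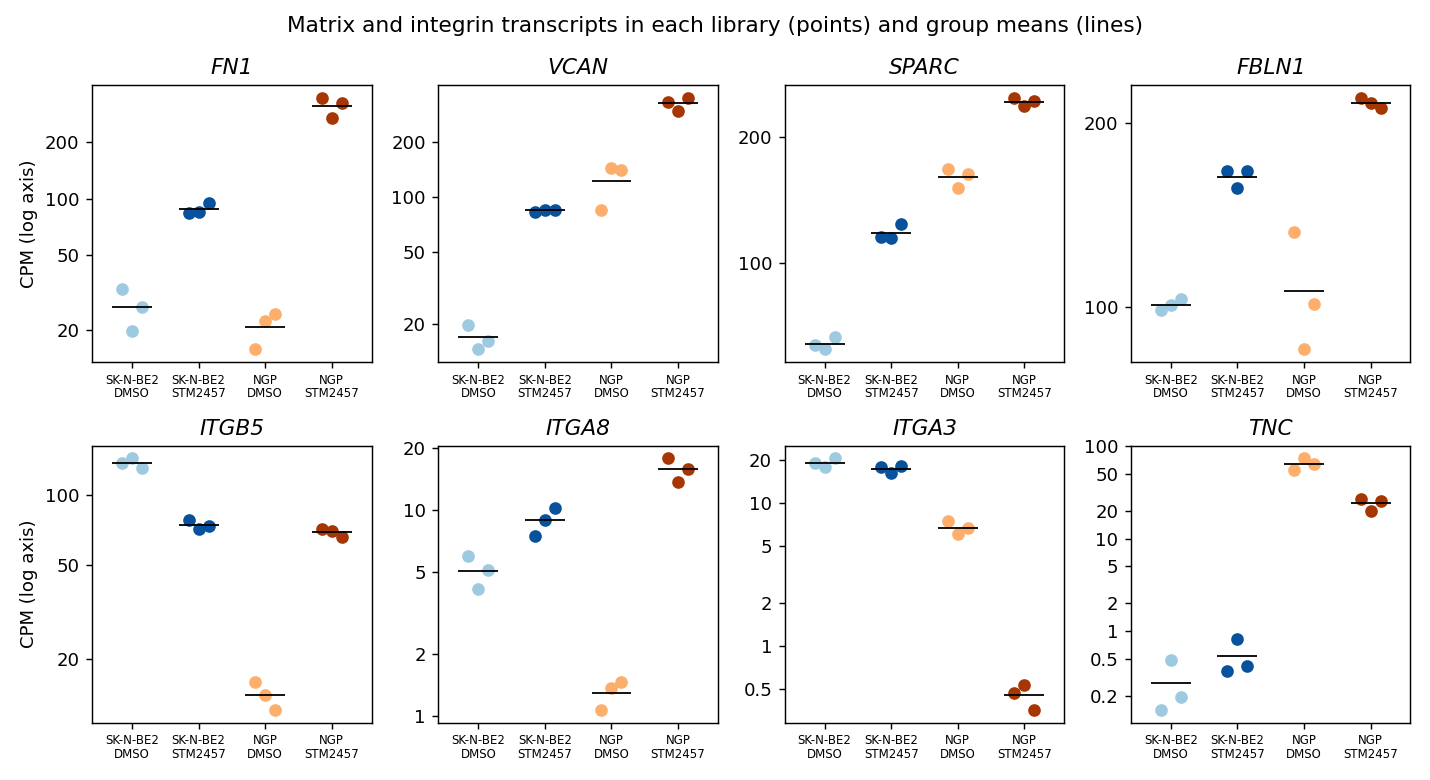
CPM (log axis, a separate range for each gene) of 4 matrix genes (top row) and of ITGB5, ITGA8, ITGA3 and TNC (bottom row) in each of the 12 libraries. Points are libraries and lines are group means. In ITGB5 the SK-N-BE2 libraries fall from 130 to 143 CPM to 71.8 to 78.0 CPM while the NGP libraries rise from 12.1 to 15.8 CPM to 66.2 to 71.8 CPM.

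SPARC, a collagen-binding matricellular protein, rose from 63.7, 62.0 and 66.4 CPM to 115, 114 and 124 CPM in SK-N-BE2 and, for NGP, from 167, 151 and 163 CPM to 249, 237 and 244 CPM in NGP. Neither pair of groups overlapped, and the log2 fold changes of 0.84 and 0.58 (edgeR adjusted p = 1.5e-06 and 0.00125) were not called different between lines (edgeR adjusted p = 0.0635). FBLN1, a fibulin found in basement membranes and elastic fibres, was at 98.9, 101 and 103 CPM with DMSO and 167, 156 and 167 CPM after STM2457 in SK-N-BE2. Its NGP levels were 132, 85.3 and 101 CPM with DMSO and 220, 215 and 212 CPM with STM2457. Its groups were separate in both lines, with log2 fold changes of 0.66 and 1.00 (edgeR adjusted p = 1.01e-05 and 0.00121).

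THBS1 encodes thrombospondin, a matricellular activator of latent TGF-beta. It was at 20.9, 21.5 and 22.5 CPM with DMSO and 34.4, 38.9 and 42.4 CPM after STM2457 in SK-N-BE2, and at 4.71, 5.40 and 6.98 CPM against 14.1, 12.1 and 14.3 CPM in NGP. The groups were separate and the log2 fold changes were 0.80 and 1.22 (edgeR adjusted p = 2.06e-05 and 0.000936). FBN1, the fibrillin of microfibrils, was at 10.8, 7.91 and 8.91 CPM with DMSO and 13.4, 15.2 and 14.6 CPM after STM2457 in SK-N-BE2. The NGP libraries were at 8.78, 17.3 and 14.1 CPM against 28.3, 25.4 and 28.7 CPM. It rose by 0.61 and 1.01 in log2 (edgeR adjusted p = 0.00131 and 0.00743), again without overlap.

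Beside these increases, the sum of a list of 10 mesenchymal and fibroblast markers also rose. The list held DCN, LUM, PRRX1, COL1A1 and THY1 among others and none of the 56 genes. It summed to 532 to 589 CPM with DMSO and 703 to 772 CPM after STM2457 in SK-N-BE2, and to 381 to 436 against 780 to 826 CPM in NGP. Of its tested genes 6 of 8 were called higher in SK-N-BE2 and 7 of 9 in NGP, where 26.9% and 19.4% of all genes were. TWIST1 and SNAI2, transcription factors of the list, were not called in SK-N-BE2 (log2 fold changes -0.09 and 0.12, edgeR adjusted p = 0.608 and 0.389). In NGP their means went from 124 to 216 CPM and from 4.38 to 21.9 CPM. DCN is itself a matrix gene and also stands in the list of further matrix genes below. No marker was at 0 reads in any group, but COL1A2 had at most 9 reads and PRRX1 had 4 in each SK-N-BE2 group. THY1, the largest part of the SK-N-BE2 sum, went from a mean of 341 to 435 CPM there and from 69.9 to 64.6 CPM in NGP. In bulk RNA, more cells of a state and more RNA per cell cannot be told apart, and the part of this shift in the matrix increases was not tested.

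TNC and POSTN were each expressed in one line and nearly silent in the other. TNC, a matricellular glycoprotein of remodelled tissue, was at 56.0, 74.1 and 63.9 CPM in NGP with DMSO and at 27.1, 20.01 and 25.4 CPM with STM2457, with no overlap. It fell by 1.44 on the log2 scale in NGP (standard error 0.16, adjusted p = 0.000217 by edgeR). In SK-N-BE2 TNC stayed below 1 CPM in every library and its log2 fold change of 0.95 was not called (edgeR adjusted p = 0.144), although the interaction was (2.42, edgeR adjusted p = 0.00155). TNC was thus the matrix gene outside the laminins and basement membrane that moved down in NGP while FN1 moved up.

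POSTN, which encodes periostin, a ligand of integrins with ITGAV, was at 4.67, 3.04 and 3.42 CPM with DMSO and 8.16, 7.81 and 8.30 CPM after STM2457 in SK-N-BE2. It rose by 1.08 on the log2 scale (standard error 0.17, adjusted p = 0.000105 by edgeR), and the groups did not overlap. In NGP it had 0 reads over the 3 DMSO libraries and 33 over the 3 STM2457 libraries, which is at least 11.7-fold higher against a floor of 3 reads over the group, and too few to pass the filter of the test. TNR, the tenascin of neural tissue, was at 1.82, 1.11 and 1.68 CPM with DMSO and 2.38, 2.70 and 2.72 CPM after STM2457 in SK-N-BE2 (log2 fold change 0.72, edgeR adjusted p = 0.0189). That call was lost without DMSO replicate 2, STM2457 replicate 2 or STM2457 replicate 3. In NGP its log2 fold change was -0.02.

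Laminins were among the most abundant ligands. LAMB1, the beta chain common to many laminins, was at 419, 326 and 361 CPM with DMSO and 364, 387 and 382 CPM after STM2457 in SK-N-BE2, and at 293, 351 and 346 against 305, 296 and 303 CPM in NGP. Its groups overlapped in both lines and it was called in neither (edgeR adjusted p = 0.981 and 0.251). LAMC1, the gamma chain found in most laminins, was at 318, 241 and 257 CPM with DMSO and 331, 358 and 338 CPM after STM2457 in SK-N-BE2. These groups were separate, with a log2 fold change of 0.30 (edgeR adjusted p = 0.0251), but the call was lost in a joint fit of all 12 libraries and without DMSO replicate 2 or 3 or STM2457 replicate 2 or 3. In NGP LAMC1 was at 119, 176 and 159 against 175, 181 and 180 CPM (log2 fold change 0.22, edgeR adjusted p = 0.251).

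Alpha chains carry the main integrin-binding domains of a laminin. Of the 5 alpha chains, 2 were called for a difference between the lines, LAMA5 and LAMA2, of which LAMA2 rests on few reads. LAMA5, the alpha chain of many adult basement membranes, was at 26.5, 26.0 and 25.8 CPM with DMSO and 11.6, 14.9 and 10.3 CPM with STM2457 in NGP, and fell by 1.11 on the log2 scale (standard error 0.15, adjusted p = 0.000673 by edgeR). In SK-N-BE2 it was at 94.3, 52.1 and 94.6 against 89.9, 72.9 and 81.8 CPM, with overlapping groups and a log2 fold change of -0.02. The difference between these responses was called (1.11, edgeR adjusted p = 0.00703).

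LAMA1, the alpha chain of early embryonic basement membranes, moved the other way in NGP, from 6.02, 7.41 and 7.86 CPM to 27.5, 27.8 and 27.5 CPM. It rose by 1.93 on the log2 scale (standard error 0.14, adjusted p = 2.92e-05 by edgeR) with no overlap. In SK-N-BE2 LAMA1 had 0 reads with DMSO and 4 with STM2457. Its exons overlap other genes over 11.1% of their length, which makes its counts uncertain. In NGP treated cells LAMA1 thus stood at 1.74 RPKM (CPM divided by exon length in kilobases, a scale on which genes can be compared) and LAMA5 at 0.858 RPKM, where the controls had 0.448 and 1.82 RPKM.

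LAMB2, a beta chain of neuromuscular and kidney laminins, was at 13.9, 9.23 and 9.98 CPM with DMSO and 17.9, 18.7 and 17.7 CPM with STM2457 in NGP (log2 fold change 0.69, edgeR adjusted p = 0.0103). LAMC3 was at 2.998, 2.13 and 2.26 CPM against 0.555, 1.20 and 0.789 CPM in NGP and fell by 1.56 in log2 (edgeR adjusted p = 0.0051), while in SK-N-BE2 its log2 fold change was -0.09 (interaction 1.49, edgeR adjusted p = 0.0079). LAMA2 was called lower in SK-N-BE2 (log2 fold change -3.01, edgeR adjusted p = 0.000196), from a mean of only 0.911 CPM. LAMA3, LAMA4, LAMB3 and LAMB4 were not called in either line where tested, and in each of the 12 libraries all of these but LAMA4 were below 4 CPM.

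Basement membrane linkers followed their own pattern in each line. NID2, a nidogen that joins laminin to collagen IV, was at 10.2, 17.3 and 15.8 CPM with DMSO and 33.3, 35.8 and 34.3 CPM with STM2457 in NGP. It rose by 1.23 on the log2 scale there (edgeR adjusted p = 0.00126), and in SK-N-BE2 it was at 0.682 to 1.47 CPM with no call. HSPG2, which encodes perlecan, was at 16.2, 31.6 and 26.9 CPM against 47.3, 56.4 and 48.1 CPM in NGP and rose by 1.00 (edgeR adjusted p = 0.00767). In SK-N-BE2 HSPG2 was at 21.3, 14.4 and 20.1 against 14.3, 16.0 and 14.1 CPM, where the groups overlapped and the log2 fold change of -0.37 (edgeR adjusted p = 0.0337) lost its call in the joint fit and without DMSO replicate 1 or 3 or STM2457 replicate 1 or 3. The interaction of HSPG2 was called (-1.36, edgeR adjusted p = 0.00267). AGRN, which encodes agrin, was at 17.1, 14.1 and 15.8 CPM with DMSO and 9.06, 12.2 and 7.26 CPM with STM2457 in NGP, without overlap (log2 fold change -0.75, edgeR adjusted p = 0.0141), a call lost without STM2457 replicate 1 or 3, and NID1 was called in neither line. Exons of NID2 and HSPG2 overlap those of other genes over 30% and 11.7% of their length, and since no strand option was set in counting their values are uncertain.

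Among beta subunits, the common partner ITGB1 changed little. It was at 332, 299.7 and 274 CPM with DMSO and 335, 349 and 331 CPM after STM2457 in SK-N-BE2, and at 119.8, 181 and 188 against 206, 193 and 205 CPM in NGP. Its log2 fold changes of 0.13 and 0.28 were not called (edgeR adjusted p = 0.245 and 0.199), although the NGP groups did not overlap. The low NGP control value was that of DMSO replicate 1.

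ITGB5 (chromosome 3, 124761948 to 124901418, minus strand), which pairs with ITGAV to bind vitronectin, moved in opposite directions. It was at 137, 143 and 130 CPM with DMSO and 78.0, 71.8 and 73.7 CPM after STM2457 in SK-N-BE2, and at 15.8, 14.0 and 12.1 CPM against 71.8, 70.0 and 66.2 CPM in NGP. Treated libraries were all lower in SK-N-BE2 and all higher in NGP. The log2 fold changes were -0.91 (standard error 0.08, adjusted p = 8.26e-07 by edgeR) and 2.29 (standard error 0.13, adjusted p = 9.71e-06 by edgeR), and they differed by -3.19 (standard error 0.14, adjusted p = 1.12e-08 by edgeR). The control libraries of the lines were apart by 3.29 on the log2 scale, whereas the treated means were 11.4 and 10.6 RPKM.

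ITGB3, the partner of ITGAV in the vitronectin receptor of osteoclasts and endothelium, was at 2.85, 2.07 and 2.56 CPM with DMSO and 5.71, 5.84 and 6.80 CPM after STM2457 in SK-N-BE2. In NGP it was at 0.0794, 0.196 and 0.156 against 1.41, 0.685 and 1.42 CPM. The groups were separate in both lines, with log2 fold changes of 1.25 and 2.98 (edgeR adjusted p = 4.46e-05 and 0.00164). ITGB3 exons overlap another gene on the same strand over 35.9% of their length, so its counts are uncertain. ITGB4, the beta subunit of hemidesmosomes, was at 1.12, 1.97 and 1.32 CPM against 0.443, 0.176 and 0.476 CPM in SK-N-BE2 (log2 fold change -2.03, edgeR adjusted p = 0.000713). ITGB8 was called in neither line, and the leukocyte beta subunit ITGB2 was below 1 CPM in every library.

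Of the alpha subunits that bind the arginine-glycine-aspartate tripeptide, ITGA8 responded most. This subunit (chromosome 10, 15513954 to 15719922, minus strand), known from kidney development and smooth muscle, was at 5.98, 4.13 and 5.12 CPM with DMSO and 7.48, 8.95 and 10.2 CPM after STM2457 in SK-N-BE2. In NGP it was at 1.07, 1.37 and 1.46 CPM with DMSO and 17.8, 13.6 and 15.7 CPM with STM2457, with no overlap in either line. The log2 fold changes were 0.77 (standard error 0.17, adjusted p = 0.00147 by edgeR) and 3.57 (standard error 0.19, adjusted p = 7.81e-06 by edgeR), and the interaction was -2.78 (edgeR adjusted p = 4.73e-06).

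ITGAV was at 97.7, 67.7 and 77.0 CPM with DMSO and 81.2, 87.1 and 81.7 CPM after STM2457 in SK-N-BE2, and at 42.0, 69.1 and 69.6 against 78.4, 67.8 and 76.3 CPM in NGP. Its groups overlapped in both lines and neither log2 fold change (0.01 and 0.27) was called. ITGA5, the fibronectin receptor subunit, was at 3.99, 3.68 and 3.99 CPM with DMSO and 7.52, 8.37 and 6.61 CPM with STM2457 in NGP, and rose by 0.92 (edgeR adjusted p = 0.00216). In SK-N-BE2 it was at 9.42, 10.7 and 10.3 against 8.13, 8.16 and 8.76 CPM (log2 fold change -0.32, edgeR adjusted p = 0.0328), a call that was lost in the joint fit and when any library other than DMSO replicate 1 was left out. The interaction for ITGA5 was called (-1.23, edgeR adjusted p = 0.000228).

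Of the 3 laminin-binding alpha subunits, 1 was called for a difference between the lines. ITGA3 (chromosome 17, 50055968 to 50090481, plus strand) fell in NGP from 7.49, 6.08 and 6.69 CPM to 0.470, 0.535 and 0.355 CPM, a log2 fold change of -3.92 (standard error 0.23, adjusted p = 1.12e-05 by edgeR). In SK-N-BE2 it was at 19.2, 17.9 and 20.7 against 17.9, 16.3 and 18.1 CPM, with overlapping groups and no call (log2 fold change -0.18, edgeR adjusted p = 0.144). The responses differed by 3.75 on the log2 scale (standard error 0.21, adjusted p = 1.07e-07 by edgeR).

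ITGA6, which pairs with ITGB1 or ITGB4, rose in SK-N-BE2 from 18.7, 18.9 and 15.4 CPM to 42.0, 48.5 and 45.5 CPM (log2 fold change 1.32, standard error 0.11, adjusted p = 4.31e-07 by edgeR). In NGP it had 4 reads over the DMSO libraries and 0 over the STM2457 libraries and was not tested. ITGA7, the muscle laminin receptor subunit, was called in neither line. The treated lines therefore differed in the laminin-binding subunits that they expressed, with ITGA6 at 6.76 RPKM in SK-N-BE2 and ITGA3 reduced to a mean below 1 CPM in NGP.

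ITGA9, a subunit that binds tenascin and other matricellular ligands, rose in both lines. It was at 5.51, 4.83 and 6.42 CPM against 12.5, 11.2 and 10.9 CPM in SK-N-BE2 and at 17.3, 22.7 and 24.9 against 53.3, 48.4 and 52.1 CPM in NGP. The log2 fold changes were 1.00 and 1.22 (edgeR adjusted p = 3.65e-05 and 0.000377), with separate groups and no called difference between lines (edgeR adjusted p = 0.472). ITGA4, which binds fibronectin and VCAM1, rose in SK-N-BE2 from 13.3, 11.6 and 10.8 CPM to 18.0, 21.5 and 20.8 CPM (log2 fold change 0.72, edgeR adjusted p = 0.000161). In NGP ITGA4 gave a log2 fold change of 0.08. Its exons overlap CERKL on the other strand over 26.4% of their length, which makes its counts uncertain.

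Of the collagen-binding subunits, ITGA11 was at 31.1, 21.4 and 25.5 CPM against 39.4, 34.0 and 45.2 CPM in SK-N-BE2 and rose by 0.57 (edgeR adjusted p = 0.00296). The NGP libraries were at 1.05, 0.509 and 0.428 CPM with DMSO and 2.41, 1.41 and 1.99 CPM with STM2457, with separate groups and a rise of 1.52 in log2 (edgeR adjusted p = 0.0146), a call lost without DMSO replicate 3 or STM2457 replicate 1. ITGA2 was at 15.5, 11.4 and 12.0 CPM against 9.23, 9.96 and 10.7 CPM in SK-N-BE2 (log2 fold change -0.42, edgeR adjusted p = 0.0165), a call lost in the joint fit and without replicate 1 of either group. ITGA1 and ITGA10 were not called in either line where tested, and ITGA1 in NGP stood at a log2 fold change of 0.62 (edgeR adjusted p = 0.0588). Exons of ITGA1 overlap other genes on both strands, which makes its counts uncertain. ITGAE, a leukocyte subunit that pairs with ITGB7, was at 33.7, 19.3 and 23.7 against 17.1, 15.1 and 15.1 CPM in NGP (log2 fold change -0.72, edgeR adjusted p = 0.0177), lost without STM2457 replicate 2 or 3.

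Of the 40 genes tested in both lines, 14 were called in both, or 35%, where 26.3% of the 12952 genes tested in both lines were. FN1, VCAN, SPARC, FBLN1, FBN1, THBS1, ITGA8, ITGA9, ITGA11 and ITGB3 rose in both, 6 ligands and 4 receptor subunits, and 10.5% of all genes rose in both. By edgeR 0 of the 40 fell in both lines, and the count was also 0 at an unadjusted p below 0.05 and by DESeq2, where 10.8% of all genes fell in both. ITGB5, ITGA5, HSPG2 and ITGB3BP were called lower in SK-N-BE2 and higher in NGP, as were 2.25% of all genes, but of these only ITGB5 kept its call in both lines when any 1 library was left out. The opposite pattern was not found among the 40 (0 by edgeR, by DESeq2 and at an unadjusted p below 0.05).

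**Figure D3:**
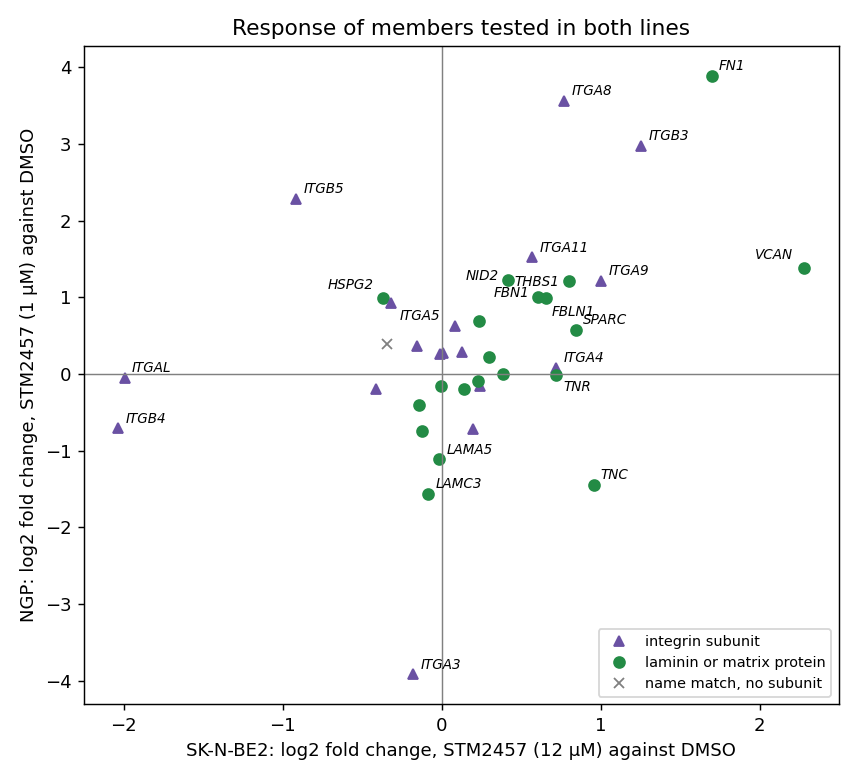
Log2 fold change after STM2457 in SK-N-BE2 (12 µM, horizontal) against that in NGP (1 µM, vertical) for the reported genes among the 40 tested in both lines. Triangles are integrin subunits, circles are laminins and other matrix genes, and the cross is ITGB3BP. FN1, VCAN and the other 8 genes that rose in both lines lie in the upper right, ITGB5 lies in the upper left, and ITGA3 lies at -3.92 in NGP beside -0.18 in SK-N-BE2.

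The difference between the responses was called for 15 of 49 tested genes, or 30.6%, beside 30.9% of all 14731 genes, so these genes differed between lines about as often as genes at large. Among receptors 2 responses were more positive in SK-N-BE2 (ITGA3 and ITGAE) and 4 were more positive in NGP (ITGB5, ITGA8, ITGB3 and ITGA5). Among ligands 4 were more positive in SK-N-BE2 (TNC, LAMC3, LAMA5 and VCAN) and 4 in NGP (POSTN, LAMA2, FN1 and HSPG2). The call for LAMA2 was kept only without SK-N-BE2 DMSO replicate 3, NGP DMSO replicate 1 or NGP STM2457 replicate 3 and was lost without each of the other 9 libraries. Without NGP DMSO replicate 1 the count was 24, with 5 receptors more positive in SK-N-BE2. The calls over all genes also grew in that fit, to 6274 of 14943 tested from 4549 of 14731 with every library.

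Levels were then summed per class in RPKM, which weights each gene by abundance. The other matrix proteins summed to 39.1 ± 1.82 RPKM (SD, n = 3) with DMSO and 71.0 ± 2.39 RPKM after STM2457 in SK-N-BE2, and to 77.2 ± 1.95 against 142 ± 5.08 RPKM in NGP. Every treated library was above every control library. Laminin chains summed to 90.8 ± 12.4 against 101 ± 2.52 RPKM in SK-N-BE2 and to 63.3 ± 6.97 against 64.1 ± 0.0907 RPKM in NGP, with overlap in both lines.

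Integrin subunits summed to 101 ± 8.27 RPKM with DMSO and 105 ± 1.37 RPKM after STM2457 in SK-N-BE2, where the groups overlapped. In NGP they summed to 52.3 ± 9.04 and 74.5 ± 2.95 RPKM, where they did not overlap. The low end of the NGP controls was replicate 1, at 42.0 RPKM, with 56.3 and 58.7 RPKM in the other two. The ligand sum was 1.29 ± 0.0964 times the receptor sum with DMSO and 1.64 ± 0.028 times after STM2457 in SK-N-BE2, and 2.72 ± 0.355 and 2.77 ± 0.0426 times in NGP. The ratio thus moved in SK-N-BE2 by more than its spread. In NGP the controls stood at 3.13 (replicate 1), 2.57 and 2.48 and the treated libraries at 2.74, 2.82 and 2.76. There the groups overlapped through replicate 1 alone, and without it all treated ratios lay above the controls. This rested on FN1. With FN1 left out, the NGP ratios were 3.11 (replicate 1), 2.54 and 2.45 with DMSO and 2.48, 2.6 and 2.51 with STM2457. Those overlapped even without replicate 1. In SK-N-BE2 the ratio with FN1 left out still rose, from 1.27 ± 0.0935 to 1.59 ± 0.0248.

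**Figure D4:**
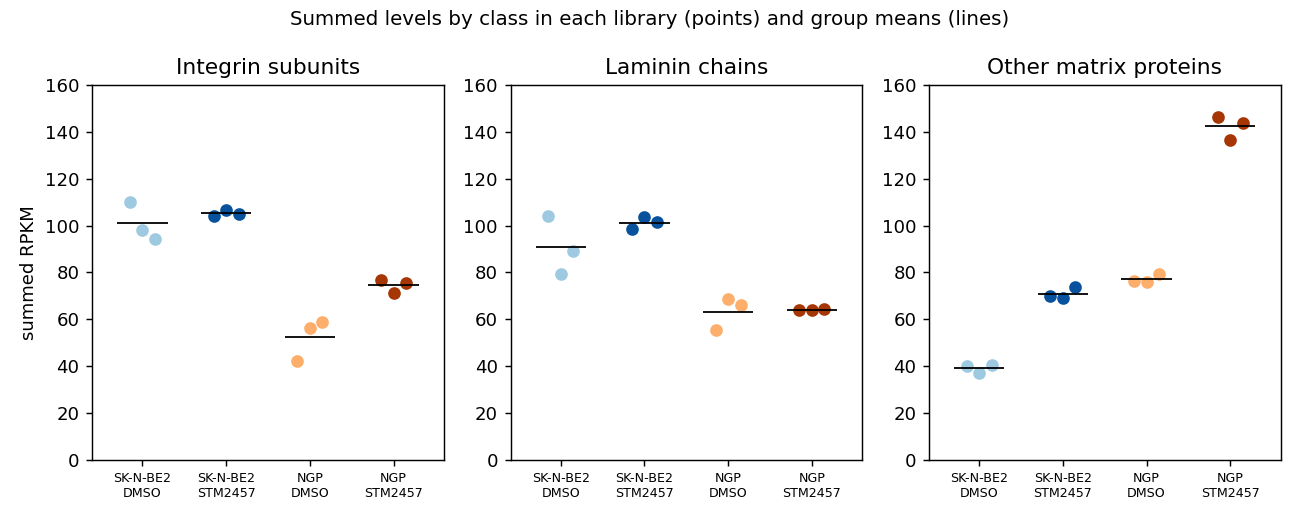
Summed RPKM of the 26 integrin subunits (left), the 12 laminin chains (centre) and the 16 other matrix proteins (right) in each library, on a common axis from 0. Points are libraries and lines are group means. The other matrix proteins separate treated from control libraries in both lines, at 39.1 and 71.0 RPKM in SK-N-BE2 and 77.2 and 142 RPKM in NGP, while the laminin sums overlap.

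Within each class a few genes held most of the signal. ITGB1 was the most abundant subunit in all 4 groups, at 50.2, 56.3, 27.1 and 33.5 RPKM in SK-N-BE2 DMSO, SK-N-BE2 STM2457, NGP DMSO and NGP STM2457. ITGB5 made up 29.1 ± 1.70% of summed beta subunits in SK-N-BE2 controls and 16.5 ± 0.859% after treatment, against 7.40 ± 2.68% and 23.5 ± 1.06% in NGP. LAMB1 led the ligands in the first 3 of these groups, at 45.7, 46.8 and 40.8 RPKM. In treated NGP cells SPARC led instead, at 52.4 RPKM against 37.3 RPKM for LAMB1. FN1 went from 1.17% to 2.96% of the ligand sum in SK-N-BE2. In NGP it went from 0.854% to 8.81%, where it became the sixth ligand by level at 18.2 RPKM.

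The untreated lines already differed in many of these genes, at a share near that of all genes. Of 49 tested genes 22 were higher in SK-N-BE2 DMSO than in NGP DMSO and 15 were lower, together 75.5%, beside 71.1% of all genes (35.7% higher and 35.4% lower). Of the receptors 12 were higher in SK-N-BE2 against 6 in NGP, and of the ligands 10 against 8. ITGA2, ITGA11 and ITGB5 were higher in SK-N-BE2, by 3.96, 5.29 and 3.29 in log2 (edgeR adjusted p = 2.11e-09, 6.82e-10 and 3.82e-12). ITGA6 had 2814 reads in the SK-N-BE2 controls and 4 in those of NGP, all in replicate 3. Its log2 difference of 9.27 (edgeR adjusted p = 2.55e-10) ranged from 8.73 to 12.83 over the other settings, with the highest value without NGP DMSO replicate 3. POSTN had 597 reads in the SK-N-BE2 controls and 0 in those of NGP, at least 191-fold more, and LAMA1 had 0 and 1086 reads, at least 377-fold fewer. TNC and NID2 were lower in SK-N-BE2, with log2 differences of -7.92 and -4.10 (edgeR adjusted p = 4.03e-11 and 1.48e-09).

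The pathway around the integrins was described from lists that did not include the 56 genes. Of 26 adaptors and kinases of focal adhesions, 11 rose and 5 fell among 25 tested in SK-N-BE2, and 12 rose and 3 fell among 26 tested in NGP. In all, 64% and 57.7% of those tested were called, beside 54.7% and 41.7% of all genes (26.9% higher and 27.8% lower in SK-N-BE2, 19.4% higher and 22.2% lower in NGP). TLN2, a talin that activates integrins, rose by 0.72 in SK-N-BE2 and by 1.09 in NGP (edgeR adjusted p = 6.46e-05 and 0.000276), and ACTN4, an actin crosslinker, by 0.69 and 0.55 (edgeR adjusted p = 3.43e-05 and 0.00277). PTK2B, a kinase related to FAK, fell by 1.41 and 1.09 (edgeR adjusted p = 3.49e-06 and 0.00123). TNS2 and TNS1, tensins that bind beta tails, rose by 1.87 and 1.36 in NGP (edgeR adjusted p = 0.00101 and 0.000194), and PARVB fell there by 1.73 (edgeR adjusted p = 0.00343).

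Of 18 other matrix receptors, 7 rose and 4 fell among 17 tested in SK-N-BE2, and 4 rose and 4 fell among 14 tested in NGP (64.7% and 57.1% called, beside 54.7% and 41.7% of all genes). CD44, the hyaluronan receptor, went from a mean of 19.0 to 37.9 CPM in SK-N-BE2 (log2 fold change 0.96, edgeR adjusted p = 3.3e-06) and was below 1 CPM in the NGP groups. The syndecan SDC1 rose by 0.92 in SK-N-BE2 (edgeR adjusted p = 9.14e-07), while SDC3 fell by 1.61 in NGP (edgeR adjusted p = 1.4e-05). The glypican GPC3 rose in both lines, by 0.82 and 1.90 (edgeR adjusted p = 0.000182 and 6.82e-05). The collagen receptor kinase DDR2 fell in both, by 0.67 and 0.89 (edgeR adjusted p = 0.000164 and 0.00439).

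Of 29 matrix remodelling genes, 9 rose and 8 fell among 28 tested in SK-N-BE2, and 9 rose and 4 fell among 26 in NGP. The shares called, 60.7% and 50%, lay near the 54.7% and 41.7% of all genes. ADAMTS9, a protease that cleaves versican, rose by 1.44 and 1.55 (edgeR adjusted p = 2.33e-07 and 9.63e-05). The urokinase receptor gene PLAUR rose by 1.13 and 2.11 (edgeR adjusted p = 0.000162 and 6.05e-05). TGM2, a transglutaminase that crosslinks matrix, fell by 0.82 and 2.05 (edgeR adjusted p = 0.00208 and 0.00294), and the protease inhibitor SERPINE2 fell by 1.74 and 1.29 (edgeR adjusted p = 1.47e-07 and 3.13e-05). The lysyl oxidase LOXL4 fell by 1.88 in SK-N-BE2 (edgeR adjusted p = 0.000264).

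Of 35 further matrix genes, 8 rose and 11 fell among 28 tested in SK-N-BE2, and 3 rose and 6 fell among 21 in NGP (67.9% and 42.9% called, beside 54.7% and 41.7% of all genes). The proteoglycan DCN rose in both lines, by 1.09 and 3.32 (edgeR adjusted p = 4.35e-07 and 0.00143), in NGP from 0.158 to 1.62 CPM. BGN, its close relative, went from a mean of 363 to 229.8 CPM in SK-N-BE2 and from 26.8 to 76.8 CPM in NGP (log2 fold changes -0.70 and 1.49, edgeR adjusted p = 1.51e-05 and 3.64e-05). RELN, which encodes reelin, did the opposite, from 159.9 to 322 CPM and from 84.5 to 25.0 CPM (0.97 and -1.78, edgeR adjusted p = 9.32e-06 and 0.00175). In SK-N-BE2 MATN2 rose by 1.94 and SMOC1 and THBS4 fell by 1.72 and 1.68 (edgeR adjusted p = 8.08e-05, 1.36e-06 and 3.18e-07).

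The GGACT pentamer, the commonest sequence form of an m6A site, was counted in the Ensembl canonical transcript of each gene in GENCODE 44. The median density was 1.36 per kilobase over the 26 integrin subunits, 1.09 over the 28 ligands and 0.923 over 18999 genes. ITGB5 and SPARC each held 2.03 per kilobase, above most genes, while FN1 held 0.834, VCAN 0.81 and ITGA8 0.611, below the median. The other genes that rose in both lines lay on either side of it. THBS1 (2.05), ITGA11 (1.57), ITGA9 (1.27) and FBLN1 (1.03) were above and ITGB3 (0.842) and FBN1 (0.517) below. These densities count letters, and methylation was not measured here.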

How the data were processed

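RNA was measured in 12 libraries, whose titles gave cell line, agent and replicate number. Libraries were made from polyadenylated RNA, per the labels' protocols. The deposited counts are whole numbers of reads per gene without normalization, which the authors made with featureCounts 2.0.5 on exons of GENCODE 33 protein-coding genes, per the file headers. The submitters' processing notes list FastQC 0.11.5, Trimmomatic 0.36, HISAT2 2.1.0, Subread 1.5.3 and GRCh38, so headers and notes give different counter versions. No strand option was set and mates were counted singly, per the file headers. Of the counts from 1 to 20, 72.1% to 75.4% were even, so depth in read pairs is lower than the 47242379 to 58159937 reads.

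The genes and lists were chosen with earlier results of these data known. Each line was fitted on its own 6 libraries with edgeR 4.0.16 (R 4.3.3): filterByExpr with a minimum count of 10, TMM scaling, the two-sided quasi-likelihood test, Benjamini-Hochberg adjustment over all genes tested and a threshold of 0.05. The difference between responses and that between control groups were contrasts over all 12 libraries. CPM and RPKM use the TMM scale of all libraries and the exon lengths of the files. Without a spike-in, changes are relative. A fold against 0 reads is a lower bound against 3 reads over the group and covers counting error only. The fits were tested on simulated counts with changes of 1 in log2. They recovered 98.0% of these in SK-N-BE2, 95.8% in NGP, 71% for the difference and 96% between controls. Of the calls 7.69%, 4.17%, 2.74% and 3.03% were false, in the same order. The simulated spread was the same for every gene and below that fitted in NGP and in the fits of all 12 libraries. Only 196, 192, 200 and 200 tested genes were changed, and genes of low mean counts were left out of these. The rates therefore do not cover genes of few reads or fits in which many genes are called.

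Full values were given for called genes with a group mean of at least 1 CPM, at most 6 per role and line by size of change, and always for FN1, ITGB1, ITGAV and LAMC1. From each pathway list up to 3 called genes per line were named. Alternatives were DESeq2 size factors, DESeq2 1.42.0, a mean of at least 1 CPM, no filter, halved counts, a joint fit, a replicate block and leaving out each library. All 56 genes lie at the same place in GENCODE 44. Over 10% of the exon length of HSPG2, ITGA4, ITGB3, ITGB6, ITGB7, ITGBL1, LAMA1, NID2 and THBS2 overlaps other genes there, so their values are uncertain. For ITGA1 this overlap was 8.06% on the other strand and 5.77% on the same strand, so its values are uncertain too. The values of 1 gene of the set are not reported here, although it is included in the counts and sums.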

Additional observations from a re-analysis of the deposited data

Results flagged for a closer look

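The responses of 15 genes to STM2457 differed between SK-N-BE2 and NGP in the interaction test of edgeR over all 12 libraries (adjusted p below 0.05), where 30.9% of all tested genes did. Values are the log2 response of SK-N-BE2 minus that of NGP. More positive in NGP were POSTN (-5.44), ITGB5 (-3.19), LAMA2 (-3.16), ITGA8 (-2.78), FN1 (-2.18), ITGB3 (-1.72), HSPG2 (-1.36), ITGA5 (-1.23) and ITGB3BP (-0.73). More positive in SK-N-BE2 were ITGA3 (3.75), TNC (2.42), LAMC3 (1.49), LAMA5 (1.11), ITGAE (0.93) and VCAN (0.90). POSTN rests on 0 reads in the NGP controls, so its value depends on the prior count of the fit and is no bound. Line, dose and sequencing run cannot be told apart in any of these differences.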

How the results depend on the processing

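No called change of the 49 genes tested in any comparison changed sign under the settings run. Of the genes called, 16 of 23 in SK-N-BE2, 19 of 24 in NGP, 14 of 15 for the difference between lines and 34 of 37 between the control groups kept their call when any 1 library was left out. The genes called numbered 19 to 25 in SK-N-BE2, 20 to 29 in NGP, 14 to 24 for the difference (24 without NGP DMSO replicate 1) and 36 to 38 between controls over these fits. Over all tested genes the same fits called 6497 to 7849 in SK-N-BE2 and 3816 to 7897 in NGP. They called 3701 to 6274 for the difference and 9941 to 11072 between controls. In NGP the highest of these all-gene numbers was that without DMSO replicate 1. In SK-N-BE2 the 5 receptors called lower became 3 with a mean of at least 1 CPM and 3 in the joint fit, and 3 to 4 when a library was left out. The 2 ligands called lower there became 1 with a mean of at least 1 CPM and 1 in the joint fit, and 1 to 3 when a library was left out. The 3 receptors called lower in NGP became 1 to 4, and the 2 receptors that responded more positively in SK-N-BE2 became 2 to 5. The cause was not tested. DESeq2 called 23, 25, 19 and 37 of the genes in the comparisons in the order given. Over all tested genes DESeq2 called 7727, 6301, 5270 and 10673, against 7665, 5671, 4549 and 10480 by edgeR.

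With the replicate number as a block, 24 genes were called in SK-N-BE2, 24 in NGP, 17 for the difference and 36 between controls. Over all tested genes the block fits called 7522, 5026, 4025 and 10233 in the same order. Deviations of equal-numbered libraries correlated at -0.14, 0.13 and 0.02 in SK-N-BE2 and at 0.01, -0.19 and 0.08 in NGP, so the numbers were not taken to pair the libraries. Depth limits genes of a few reads, such as POSTN and ITGA6 in NGP and LAMA1 in SK-N-BE2.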

Other observations

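Several integrin subunits and ligands were nearly absent. ITGAD, ITGAM, ITGAX, ITGB7 and the epithelial ITGB6 stayed below 0.3 CPM in every library, as did FBN2 and ITGBL1. ITGAL was called lower in SK-N-BE2 (log2 fold change -1.99, edgeR adjusted p = 0.0101) from at most 0.385 CPM, a call lost without STM2457 replicate 2. ITGB2 was called lower in NGP (log2 fold change -2.84, edgeR adjusted p = 0.0202) from at most 0.430 CPM, a call lost without DMSO replicate 2 or STM2457 replicate 1 or 3. ITGA2B, the platelet subunit, was at 3.09 to 4.31 CPM in NGP controls and 3.57 to 6.09 CPM with STM2457, with overlap and no call.

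ITGB3BP, the centromere protein, was at 26.1, 27.6 and 29.2 CPM with DMSO and 20.6, 22.4 and 23.9 CPM after STM2457 in SK-N-BE2 (log2 fold change -0.34, edgeR adjusted p = 0.00906), lost without STM2457 replicate 1. In NGP it was at 44.2, 35.9 and 32.7 against 47.3, 48.6 and 55.0 CPM (0.40, edgeR adjusted p = 0.0433), a call lost when any library other than DMSO replicate 1 was left out and with the replicate block. Endothelial markers (5 genes) summed to 16.9 to 22.5 CPM with DMSO and 11.9 to 14.2 CPM after STM2457 in SK-N-BE2, and to 0.0782 to 0.272 against 2.62 to 3.802 CPM in NGP, where PECAM1 had 0 reads. Schwann cell markers (4 genes) summed to at most 5.80 CPM in any library.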
